A study of Mus musculus with 6 samples.

Results

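The cholesterol and fatty acid synthesis genes are 33 genes chosen by symbol from the 55367 gene symbols measured in every library. Of these, 21 belong to the sterol branch, which makes cholesterol under the transcription factor SREBP2, and 12 belong to the fatty acid branch, which makes and desaturates fatty acids under SREBP1. The rule uses gene symbols and no measured value. RNA was sequenced from kidney cells of adult male mice labelled Day115 in every group, in 3 groups of 2 libraries each. WT mice (Pkd1+/+) received saline. ADPKD mice (Pkd1-/-) received saline and lacked Pkd1, the main gene of autosomal dominant polycystic kidney disease (ADPKD), after tamoxifen had switched on Cre in young Pkd1 fl/fl;Cre/Esr1+ mice. ADPKD+MMPP mice were Pkd1-/- mice that received repeated intravenous injections of MMPP, an ultra-small melanin-like nanoparticle that carries polyethylene glycol and chelated manganese. The cells were picked with beads that bind Dolichos biflorus agglutinin (DBA), a lectin that marks the collecting duct, although the labels also mention whole-kidney RNA. The promoter that drives Cre is not given in the sources used here, and nothing says that the 2 libraries of a group came from separate mice, so the p-values measure only the spread between these libraries. The levels are FPKM, fragment counts scaled to the exon length of the gene and to the size of the library, as the authors deposited them.

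Cells make cholesterol from acetyl-CoA through mevalonate, squalene and lanosterol, and they make fatty acids from the same acetyl-CoA through malonyl-CoA. When membrane sterol is low, SCAP carries SREBP2 from the endoplasmic reticulum to the Golgi, where proteases free the part that enters the nucleus and switches on the sterol genes. INSIG proteins hold SCAP back when sterol is plentiful. SREBP1 responds more to insulin and nutrient state and acts mainly on the fatty acid genes. Both factors bind sterol response elements and act together with NF-Y, which binds CCAAT boxes near the start of transcription.

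Promoters of members were searched for 3 short motifs on both strands, in windows of 250 bases before to 50 bases after each annotated start (RefSeq, GRCm38.p6). Of the 33 members, 26 matched an entry by symbol. The core of the classical sterol response element, TCACNCCA, was found in 3 of the 26 members, which were Hmgcs1, Msmo1 and Srebf2, and in 4.97% of 27025 genes with a window. All 3 belong to the sterol branch (3 of 17), against 0 of 9 in the fatty acid branch. CCAAT was found in 22 of the 26 members, in 16 of 17 sterol and 6 of 9 fatty acid members, against 41.1% of all genes. The 4 members without it were Acaca, Acat2, Elovl6 and Fads2. The Acaca window, chr11:84195188-84195487 on the plus strand, lies inside the gene, which starts at 84129672 in GENCODE vM21. It therefore does not describe the first promoter of Acaca. The cAMP response element TGACGTCA, the full site of CREB, was found in 1 of 26 members (Elovl5) and in 2.03% of all genes. A match describes the letters in this window and is not evidence of binding.

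The windows of 4 members are shown because their genes carry the results below. Hmgcs1 and Idi1 are mevalonate steps that differed in opposite directions in the MMPP-treated libraries, and Mvd and Fasn were higher in ADPKD than in WT. Capitals mark the motifs: the sterol response element core (in Hmgcs1 only) and CCAAT or its reverse complement. In the Fasn window a CCAAT and an ATTGG overlap and appear as 1 run of capitals.
Hmgcs1, chr13:119690101-119690400, plus strand: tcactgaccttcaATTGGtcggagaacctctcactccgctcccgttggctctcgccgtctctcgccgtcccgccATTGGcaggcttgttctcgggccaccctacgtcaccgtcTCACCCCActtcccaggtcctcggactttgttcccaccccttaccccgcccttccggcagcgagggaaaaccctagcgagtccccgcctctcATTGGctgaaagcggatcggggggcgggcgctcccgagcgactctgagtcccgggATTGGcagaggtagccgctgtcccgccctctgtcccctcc
Idi1, chr13:8885356-8885655, plus strand: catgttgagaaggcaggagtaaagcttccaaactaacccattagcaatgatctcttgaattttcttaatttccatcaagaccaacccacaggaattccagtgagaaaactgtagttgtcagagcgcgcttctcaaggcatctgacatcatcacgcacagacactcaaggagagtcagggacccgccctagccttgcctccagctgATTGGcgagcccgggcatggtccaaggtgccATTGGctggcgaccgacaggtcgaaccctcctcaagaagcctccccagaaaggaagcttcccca
Mvd, chr8:122443373-122443672, minus strand: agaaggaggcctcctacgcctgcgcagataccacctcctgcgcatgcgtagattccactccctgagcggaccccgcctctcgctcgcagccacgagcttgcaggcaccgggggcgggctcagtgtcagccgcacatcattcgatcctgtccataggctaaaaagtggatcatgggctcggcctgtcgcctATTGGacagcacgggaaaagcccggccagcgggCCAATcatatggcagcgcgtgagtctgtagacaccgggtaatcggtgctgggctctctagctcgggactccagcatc
Fasn, chr11:120824498-120824797, minus strand: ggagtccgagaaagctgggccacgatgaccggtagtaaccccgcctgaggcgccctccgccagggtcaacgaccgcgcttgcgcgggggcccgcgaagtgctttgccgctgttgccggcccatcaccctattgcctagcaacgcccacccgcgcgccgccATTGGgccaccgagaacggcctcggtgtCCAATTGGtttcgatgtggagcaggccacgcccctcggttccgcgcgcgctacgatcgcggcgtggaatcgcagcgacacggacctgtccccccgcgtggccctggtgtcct
In these windows CCAAT or its reverse complement starts at positions -237, -176, -45 and 10 of Hmgcs1 counted from the annotated start, and the sterol response element core starts at -137. Idi1 has CCAAT at -45 and -14, Mvd at -60 and -27, and Fasn at -90, -62 and -59.

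Pkd1 itself was listed at 17.7 and 17.2 FPKM in WT, 7.64 and 8.91 in ADPKD and 4.34 and 3.99 in ADPKD+MMPP. These gene-level values include exons outside any deleted part. The collecting duct water channel Aqp2 stood at 1267 and 1776 FPKM in WT, 1392 and 677 in ADPKD and 3555 and 3499 in ADPKD+MMPP. Over the 10 principal cell markers the summed level was 2097 to 2798 FPKM in WT, 2507 and 958 in ADPKD and 5438 to 5459 in ADPKD+MMPP. Their median was 60.7 and 73.1 FPKM in WT, 93.2 and 31.6 in ADPKD and 44.8 and 40.6 in ADPKD+MMPP, so it did not rise with the sum. Of these markers, 9 were tested, and 1 was higher and 0 lower in ADPKD than in WT (14.2% and 12.5% of all genes). Against ADPKD, 4 were higher in ADPKD+MMPP (Aqp2, Aqp3, Hsd11b2 and Scnn1g) and 3 lower (Aqp4, Scnn1b and Elf5), against 27.9% and 43.0% of all genes. With libraries centred by transcript share, a scaling described below, 1 was higher and 1 lower (33.8% and 24.5% of all genes). Depth recovered from the steps of the FPKM values was 30.6 to 33.1 M reads in the WT and ADPKD libraries and 10.9 to 11.8 M reads in the ADPKD+MMPP libraries. Read numbers up to 10 were odd in 33.7% to 35.7% of values in WT and ADPKD and in 6.72% and 6.86% in ADPKD+MMPP. The read numbers behind the MMPP-treated libraries were thus of another make-up than those of the other libraries, and this difference and the treatment cannot be told apart.

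ADPKD was compared with WT to ask what loss of Pkd1 does to these genes. A gene was tested where its FPKM reached 1 in 2 or more libraries, which 32 of the 33 members did. A call needed a change of 1.5-fold or more together with an unadjusted P under 0.05, in limma on log2(FPKM + 1). Of the 32 members, 5 were higher in ADPKD (Me1, Sqle, Fasn, Fads2 and Mvd) and 1 was lower (Pmvk). Across all 14862 genes tested, 26.7% were called, 14.2% higher and 12.5% lower, and 6 of 32 members is below that share. The median log2 fold change was 0.08 over the members and 0.03 over all genes tested. The members ranged from -0.71 to 1.12 on this scale. All 6 calls also had an adjusted p under 0.05. In the annotation used here (GENCODE vM21, GRCm38) these genes lie at chr9:86581371-86695953 (Me1), chr15:59315077-59331192 (Sqle), chr11:120805846-120824547 (Fasn), chr19:10062765-10101746 (Fads2), chr8:122433601-122443422 (Mvd) and chr3:89454541-89469013 (Pmvk).

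The mevalonate steps build the isoprene units from which sterols are made. Pmvk, phosphomevalonate kinase, stood at 11.2 and 12.4 FPKM in WT and 6.60 and 6.97 in ADPKD. Both ADPKD libraries lay below both WT libraries, with a log2 fold change of -0.71 ± 0.12 (SE), adjusted p = 0.0115. Mvd, mevalonate diphosphate decarboxylase and the next enzyme of the path, went the other way, from 4.36 and 4.45 to 7.74 and 7.05 FPKM. Its log2 fold change was 0.63 ± 0.11 (SE), adjusted p = 0.0139, and the call was lost without ADPKD replicate 1 (log2 fold change 0.57), with a common sum of FPKM (0.57) and once centred by transcript share (0.50). Mvk, the mevalonate kinase that acts just before Pmvk, was at 5.10 and 4.62 FPKM in WT and 3.92 and 2.48 in ADPKD and was not called (log2 fold change -0.50 ± 0.25 (SE), adjusted p = 0.186). The entry enzymes did not pass either. Acat2, which joins acetyl-CoA units, had a log2 fold change of 0.43, and Hmgcs1, which makes HMG-CoA, one of 0.17. Fdft1, squalene synthase, had 0.36 and Idi1, the isopentenyl diphosphate isomerase, -0.29. Exons of Fdft1 share 18.3% of their bases with Ctsb on the opposite strand. Fdps, farnesyl diphosphate synthase, was too low for the test, at 0.264 and 0.430 FPKM in WT, 0.927 and 0.586 in ADPKD and 0.503 and 0.893 in ADPKD+MMPP. The annotation places another gene, Gm43738, over 26.7% of its exon bases on the same strand, so reads there cannot be given to one gene.

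Of the 10 genes of the sterol ring steps, which turn squalene into cholesterol, 1 was higher and 0 were lower. These shares were 14.2% and 12.5% over all genes tested. Sqle, squalene epoxidase and a rate-limiting enzyme of the path, stood at 3.15 and 3.14 FPKM in WT and 6.87 and 5.74 in ADPKD. The groups did not overlap, and the log2 fold change was 0.81 ± 0.13 (SE), adjusted p = 0.0109. Cyp51, the lanosterol demethylase, was at 5.45 and 6.72 FPKM in WT and 10.3 and 7.90 in ADPKD, again without overlap, but its fold was below 1.5 (log2 fold change 0.51 ± 0.17 (SE), adjusted p = 0.0763). Dhcr7, which completes cholesterol, was at 2.51 and 2.53 FPKM in WT and at 2.22 and 0.895 in ADPKD. Its 2 ADPKD libraries lay far apart, and the log2 fold change was -0.51 ± 0.25 (SE), adjusted p = 0.188. The other 7 ring genes, Lss, Tm7sf2, Msmo1, Nsdhl, Hsd17b7, Ebp and Sc5d, had log2 fold changes from -0.47 (Tm7sf2) to 0.22 (Msmo1) and were not called.

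No sterol regulator was called. Srebf2, which encodes SREBP2, was at 21.5 and 22.6 FPKM in WT and 26.4 and 21.7 in ADPKD (log2 fold change 0.11 ± 0.14 (SE), adjusted p = 0.574). Insig1, which holds SCAP in the endoplasmic reticulum and is itself a target of SREBP2, was at 12.6 and 13.6 FPKM in WT and 16.5 and 12.2 in ADPKD (log2 fold change 0.11 ± 0.17 (SE), adjusted p = 0.662). The ADPKD values of both genes enclosed or overlapped those of WT. Stard4, a carrier that moves cholesterol between membranes, had a log2 fold change of -0.29 and was not called.

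In the fatty acid branch 3 of 12 members were higher in ADPKD and 0 were lower, against 14.2% and 12.5% of all genes tested. The branch median was 0.12 on the log2 scale, against 0.08 in the sterol branch. Me1, the malic enzyme that supplies NADPH, stood at 2.41 and 2.47 FPKM in WT and 7.39 and 5.67 in ADPKD. This was the largest change of any member, with a log2 fold change of 1.12 ± 0.19 (SE), adjusted p = 0.011, and Me1 was the only member called at a fold above 2. Fasn, fatty acid synthase, rose from 5.93 and 5.89 to 10.9 and 11.0 FPKM. Its libraries agreed closely within each group, and the log2 fold change was 0.79 ± 0.11 (SE), adjusted p = 0.00681. Fads2, the first desaturase of the path to polyunsaturated fatty acids, was at 6.13 and 5.79 FPKM in WT and 12.4 and 8.97 in ADPKD. Its log2 fold change was 0.73 ± 0.17 (SE), adjusted p = 0.0288, and without ADPKD replicate 1 the call was lost (log2 fold change 0.52).

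The remaining fatty acid genes did not pass. Srebf1, which encodes SREBP1, was at 17.9 and 15.7 FPKM in WT and 22.4 and 25.7 in ADPKD, without overlap, at a fold below 1.5 (log2 fold change 0.49 ± 0.14 (SE), adjusted p = 0.049). Acly, which makes cytosolic acetyl-CoA from citrate, was at 26.8 and 25.9 FPKM in WT and 29.5 and 30.4 in ADPKD (log2 fold change 0.18 ± 0.18 (SE), adjusted p = 0.507). The fatty acid elongase Elovl5 was at 24.7 and 27.9 FPKM in WT and 22.4 and 18.8 in ADPKD (log2 fold change -0.34 ± 0.14 (SE), adjusted p = 0.129). Scd1 and Scd2, the desaturases that make monounsaturated fatty acids, had log2 fold changes of -0.24 and -0.14. Scd1 was at 7.63 and 7.16 FPKM in WT and 7.47 and 4.92 in ADPKD, and Scd2 at 55.5 and 69.7 FPKM in WT and 74.1 and 43.0 in ADPKD, so that the groups overlapped for both. Acss2, Acaca, Elovl6 and Fads1 had log2 fold changes of -0.02, -0.06, 0.54 and 0.05. Elovl6, an elongase of saturated fatty acids, differed most between the ADPKD libraries, at 7.38 and 3.27 FPKM.

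The 2 ADPKD libraries were not alike over the members. Replicate 1 exceeded replicate 2 in 25 of 33 members, with a median log2(FPKM + 1) difference of 0.28, while replicate 1 was the higher in 15 of 33 members in WT and in 17 of 33 in ADPKD+MMPP. Without ADPKD replicate 1 the comparison with WT called 4 members higher and 5 lower, and the sterol branch median was -0.08. Without ADPKD replicate 2 it called 7 higher and 1 lower, and the fatty acid branch median was 0.30. The sets called in ADPKD thus rested in part on 1 library.

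**Figure D1:**
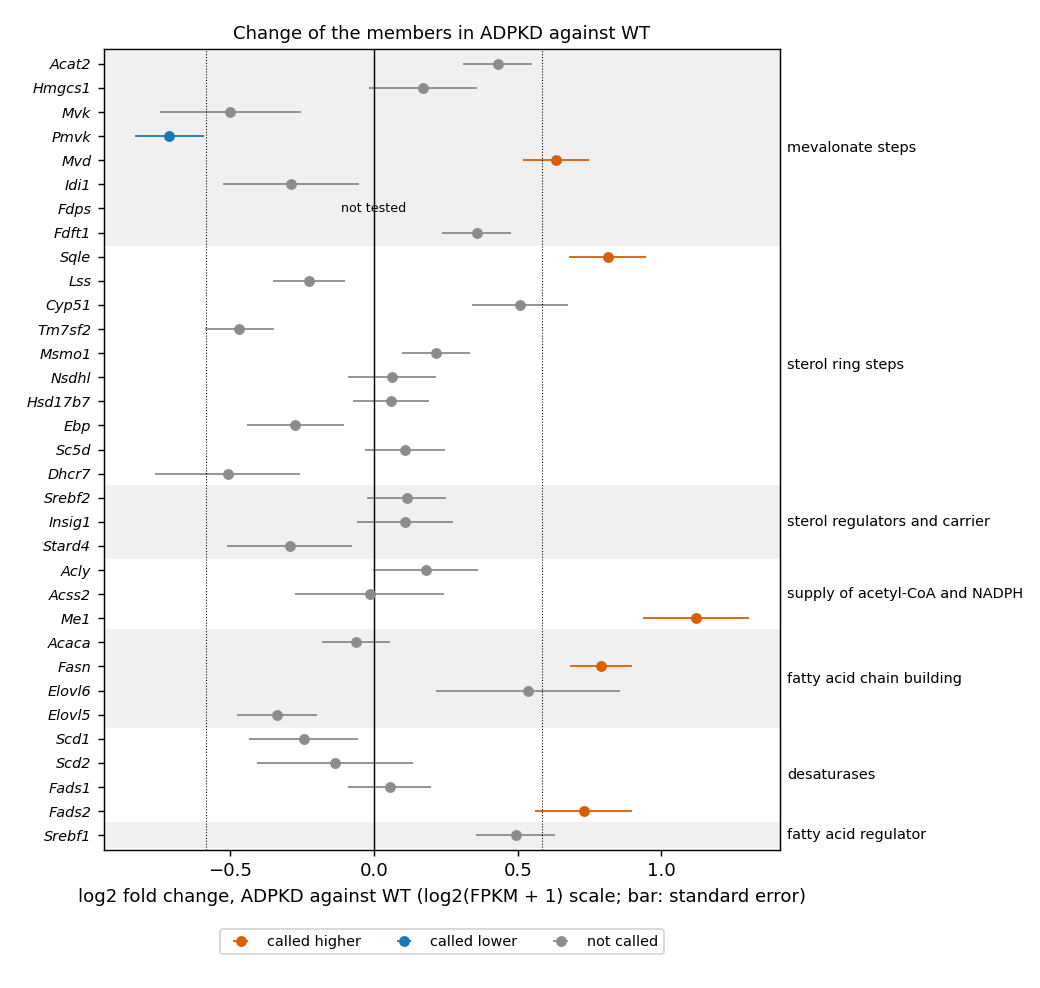
Log2 fold change of each member in ADPKD against WT (x axis, log2(FPKM + 1) scale) with its standard error, ordered by role (y axis), with dotted lines at a fold of 1.5 either way. Me1 stands farthest to the right at 1.12, followed by Sqle, Fasn, Fads2 and Mvd, Pmvk is the member called lower at -0.71, and most members lie between the dotted lines.

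Markers of other cell types moved in the same comparison, where 14.2% of all genes tested were higher and 12.5% lower. The 9 macrophage markers were higher in 8 cases and lower in 1, and their summed level was 116 to 131 FPKM in WT and 627 to 821 in ADPKD. Lyz2 was at 7.63 and 8.69 FPKM in WT and 188 and 224 in ADPKD. The 7 fibroblast markers were higher in 5 cases and lower in 1, with sums of 84.1 to 105 FPKM in WT and 153 to 172 in ADPKD. The 9 intercalated cell markers were lower in 8 cases, with sums of 340 to 352 FPKM in WT and 40.8 to 95.1 in ADPKD. Fewer cells of a type and less RNA per cell cannot be told apart in these bulk libraries, and the part of these cells in the members' changes was not tested. Of the 6 endothelial markers 6 were lower in ADPKD, with sums of 605 to 733 FPKM in WT and 261 to 287 in ADPKD. The 14 proximal tubule markers were higher in 5 cases and lower in 1, with sums of 615 to 839 FPKM in WT and 1499.5 to 2088 in ADPKD. Their median did not rise with the sum, at 14.8 and 6.19 FPKM in WT and 10.1 and 4.32 in ADPKD. Of the 6 thick limb and distal tubule markers 3 were lower and 0 higher, with sums of 517 to 1301 FPKM in WT and 191 to 631 in ADPKD. Of the 12 adipocyte markers 4 passed the filter, 1 of them higher and 1 lower, with sums of 129 to 143 FPKM in WT and 142 to 150 in ADPKD. The defining adipocyte markers Adipoq, Plin1 and Lep did not exceed 0.398 FPKM in any library.

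ADPKD+MMPP was compared with ADPKD to ask how the members differ in cells picked from MMPP-treated mice. Compared with ADPKD, the 32 members split into 12 called higher, 16 called lower and 4 not called. Among all genes tested 70.9% were called, 27.9% higher and 43.0% lower, so a call was common for any gene. The member median was -0.60, against -0.36 over all genes tested, and the members ranged from -3.27 (Acly, chr11:100476353-100528000) to 3.55 (Idi1, chr13:8885501-8892451). In the sterol branch 6 were higher and 10 lower of 20, and in the fatty acid branch 6 were higher and 6 lower of 12.

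The sign of a member's change ran with the structure of its gene. For each gene the percent of its exon bases found in a single transcript of the annotation (GENCODE vM21) was computed, a share that is high for genes with few overlapping transcripts. The 12 members that were higher had shares of 60.5% to 89.2%, and the 16 that were lower had shares of 6.94% to 44.1%, so that the ranges did not overlap. Of the 14 members with a share of at least 50%, 13 had a log2 fold change above 0, and of the 18 under 50%, 1 did. Over the 32 members Spearman's rho between the share and the log2 fold change was 0.85, and over 12374 protein-coding genes tested it was 0.65. In ADPKD against WT the same values were -0.35 and 0.05. These correlations are across genes of the same libraries and carry no p.

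**Figure D2:**
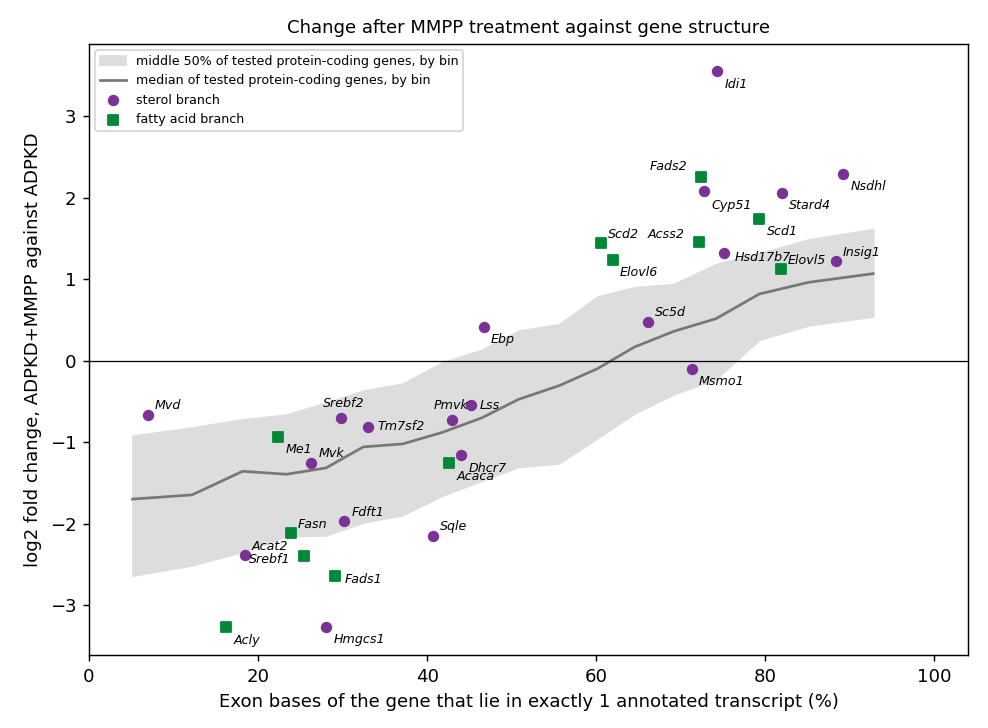
Log2 fold change in ADPKD+MMPP against ADPKD (y axis) against the percent of exon bases found in a single annotated transcript (x axis), with the sterol members as circles, the fatty acid members as squares, and the median and middle 50% of tested protein-coding genes in bins of the share as a grey line and band. Members and other genes rise together from left to right, with Idi1 far above and Hmgcs1, Acly and Sqle far below the grey median.

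For this reason each change was also computed after every library had been centred within 20 bins of this share over protein-coding genes, which sets a member against genes of like structure. On that scale 14 members were higher and 6 lower, and 58.3% of 12374 genes were called, 33.8% higher and 24.5% lower. The member median was 0.47 and that of all genes 0.15. The 6 members called lower had shares of 16.2% (Acly) to 40.7% (Sqle). Those called higher had shares of 6.94% (Mvd) to 89.2% (Nsdhl). Agreement between the 2 scales thus does not free a member's change from gene structure. Of the 28 members called on the deposited values, 16 kept their call and direction. Acaca, Dhcr7, Mvk and Tm7sf2 could not have kept theirs. Their ADPKD levels were too low for a centred call of lower on log2(FPKM + 1). The split between higher and lower thus turned with the scaling, and it was 14 to 10 where libraries were only centred on their medians, and also after quantile normalization. Where a pair of values is given below, the first is on the deposited scale and the second is centred.

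The mevalonate steps split sharply. Hmgcs1 stood at 13.0 and 10.7 FPKM in WT, 15.9 and 11.4 in ADPKD and 0.498 and 0.519 in ADPKD+MMPP. The MMPP-treated libraries lay far below every other library, with a log2 fold change of -3.26 ± 0.19 (SE), adjusted p = 5.17e-05, and the centred value was -1.54. Gm48342, an annotated antisense gene, covers 12.1% of the exon bases of Hmgcs1. Acat2 was at 4.04 and 3.58 FPKM in WT, 5.38 and 5.57 in ADPKD and 0.200 and 0.288 in ADPKD+MMPP. The last 2 values rest on 6 and 8 reads, in libraries where few low read numbers were odd. The log2 fold change was -2.38, or -0.60 centred.

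Idi1 moved the other way. It was at 2.58 and 2.87 FPKM in WT, 2.87 and 1.39 in ADPKD and 35.8 and 33.6 in ADPKD+MMPP. The MMPP-treated libraries were above all others, with a log2 fold change of 3.55 ± 0.24 (SE), adjusted p = 7.79e-05, the highest of any member. Centred, the value was still 3.13. Hmgcs1 and Idi1, enzymes of one path that are both known targets of SREBP2, were thus lower and higher in the same libraries on both scales. Their shares of exon bases in 1 transcript were 28.1% (Hmgcs1) and 74.3% (Idi1). The 2 kinases and the decarboxylase between Hmgcs1 and Idi1 were called lower on the deposited scale. Once centred, Mvd was called higher and the kinases were not called. For Mvk a centred call of lower was out of reach, given its low ADPKD level on log2(FPKM + 1). Mvk was at 0.443 and 1.10 FPKM (-1.25, centred 0.47), Pmvk at 3.56 and 3.85 FPKM (-0.73, centred 0.39) and Mvd at 4.37 and 4.24 FPKM (-0.66, centred 1.45). Fdft1 changed by -1.97, or by -0.25 and without a call once centred.

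Among the ring steps 3 were higher, 3 lower and 4 not called, where 27.9% of all genes tested were higher and 43.0% lower. Cyp51 was at 42.1 and 41.2 FPKM in ADPKD+MMPP, well above the highest other library at 10.3 FPKM, with a log2 fold change of 2.09 ± 0.17 (SE), adjusted p = 0.000143 and a centred value of 1.67. Nsdhl, a dehydrogenase of the demethylation steps that follow, was at 5.97 and 5.67 FPKM in WT, 7.08 and 5.28 in ADPKD and 34.3 and 33.8 in ADPKD+MMPP. It had a log2 fold change of 2.30 ± 0.15 (SE), adjusted p = 7.85e-05, or 1.25 centred. Msmo1, the oxidase that prepares the methyl groups which Nsdhl helps to remove, was at 3.74 and 4.27 FPKM in ADPKD and 3.61 and 3.76 in ADPKD+MMPP (-0.09, centred -0.30, neither called). Hsd17b7, the ketoreductase of these steps, was called higher on both scales (1.32, centred 0.90).

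Sqle was the ring gene that fell most. From 6.87 and 5.74 FPKM in ADPKD it went to 0.733 and 0.562 in ADPKD+MMPP, below the 3.15 and 3.14 of WT. It had a log2 fold change of -2.15 ± 0.13 (SE), adjusted p = 6.48e-05, and -1.03 centred. Dhcr7 was at 0.0874 and 0.126 FPKM, on 6 and 8 reads (-1.16), and Tm7sf2, a sterol reductase, was at 0.154 and 0.291 FPKM, on 8 and 14 reads (-0.81). Once centred they had -0.05 (Dhcr7) and 0.57 (Tm7sf2). A call of lower was out of reach there, because genes this low in ADPKD can fall little on log2(FPKM + 1). Tm7sf2 shares 12.1% of its exon bases with Vps51 on the same strand. Lss (-0.54, centred 0.35), Ebp (0.42) and Sc5d (0.48, centred 0.47) were not called on the deposited scale, and Ebp, the sterol isomerase, was called higher at 1.31 once centred.

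Of the sterol regulators and the carrier 2 were higher and 1 was lower on the deposited scale, against 27.9% and 43.0% of all genes tested. Insig1 was at 34.3 and 34.7 FPKM in ADPKD+MMPP, above the 4 other libraries, with a log2 fold change of 1.22 ± 0.17 (SE), adjusted p = 0.00104. Its exon bases are 88.3% in 1 transcript, and centred it had 0.11 and no call. Srebf2 was at 14.3 and 14.4 FPKM, below the 4 other libraries, with a log2 fold change of -0.70 ± 0.14 (SE), adjusted p = 0.00437. The call was lost without ADPKD replicate 1 (-0.57). Its share is 29.8%, and centred the sign turned, to 1.02. Stard4 rose on both scales, from 7.27 and 4.42 to 27.1 and 26.7 FPKM (2.06, centred 1.25).

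The fatty acid branch split by enzyme as well. Acly was at 1.70 and 2.81 FPKM in ADPKD+MMPP, far below every other library, with a log2 fold change of -3.27 ± 0.18 (SE), adjusted p = 4.86e-05 and a centred value of -1.49. Acss2, which makes acetyl-CoA from acetate and so feeds the same pool, was at 2.1 and 1.56 FPKM in WT, 2.60 and 1.16 in ADPKD and 6.97 and 6.40 in ADPKD+MMPP. Acss2 was higher in both MMPP-treated libraries than in any other, with a log2 fold change of 1.46 ± 0.26 (SE), adjusted p = 0.00305, or 1.04 centred. The 2 suppliers of acetyl-CoA were thus called in opposite directions on both scales. Their shares of exon bases in 1 transcript also lay apart, at 16.2% (Acly) and 72.1% (Acss2). Me1 was at 3.48 and 2.43 FPKM (-0.93), and its sign turned once centred (0.71).

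The enzymes that build the chain were low. Fasn was at 1.76 and 1.76 FPKM, below all 4 other libraries, with a log2 fold change of -2.11 ± 0.11 (SE), adjusted p = 3.85e-05, and at -0.47 centred it was not called. Acaca, the acetyl-CoA carboxylase that makes malonyl-CoA, was at 1.5 and 1.62 FPKM in ADPKD. In ADPKD+MMPP it was at 0.0794 and 0.0644 FPKM, on 16 and 12 reads (-1.26, centred -0.14). At its ADPKD level no fall on log2(FPKM + 1) could reach a centred call of lower, so the missing call says nothing about Acaca. The elongases were high. Elovl6 was at 12.4 and 14.0 FPKM (1.24, centred 1.59), and without ADPKD+MMPP replicate 2 it was no longer called on the deposited scale (1.17). Elovl5 was at 46.4 and 45.4 FPKM (1.12, centred 0.31 and not called).

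The desaturases gave 3 members higher and 1 lower on both scales. Over all genes these calls made up 27.9% and 43.0% on the deposited scale and 33.8% and 24.5% once centred. Scd1 was at 22.9 and 22.5 FPKM and Scd2 at 154 and 157 FPKM in ADPKD+MMPP, above every other library, with log2 fold changes of 1.74 and 1.45, or 0.93 and 1.79 centred. These paralogues are alike in sequence, and reads common to both could be split between them. Fads2 was at 52.2 and 56.4 FPKM, with a log2 fold change of 2.26 ± 0.17 (SE), adjusted p = 0.000111 and a centred value of 1.84. Fads1, which acts after Fads2 on the same fatty acids and lies beside it on chromosome 19, was at 11.8 and 11.3 FPKM in WT, 13.5 and 10.7 in ADPKD and 1.13 and 1.07 in ADPKD+MMPP. It had a log2 fold change of -2.64 ± 0.14 (SE), adjusted p = 4.53e-05, or -0.91 centred. The neighbours Fads1 (chr19:10182888-10196877) and Fads2 therefore moved apart, and their shares of exon bases in 1 transcript were 29.2% and 72.4%. Srebf1 fell from 22.4 and 25.7 to 3.97 and 3.56 FPKM, with a log2 fold change of -2.39 ± 0.14 (SE), adjusted p = 5.15e-05 and a centred value of -0.74.

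**Figure D3:**
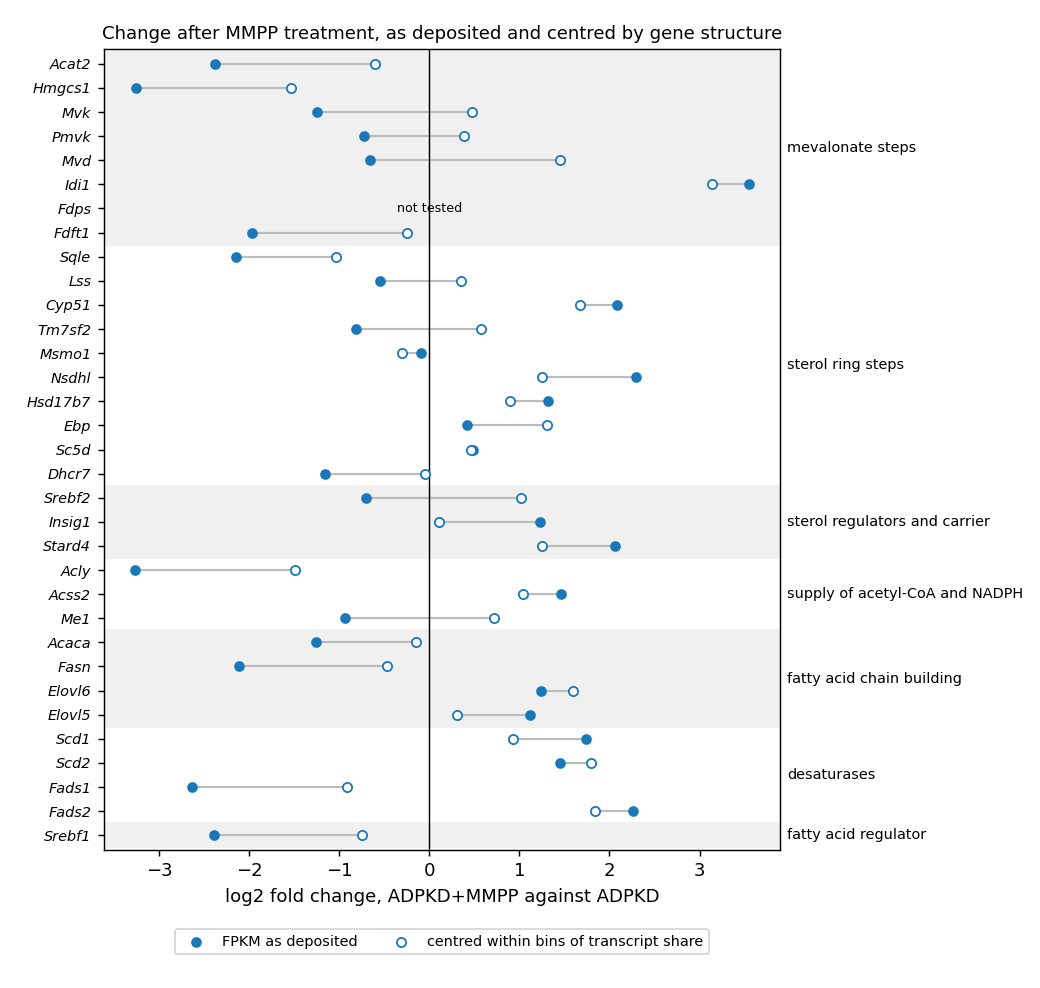
Log2 fold change of each member in ADPKD+MMPP against ADPKD (x axis) on the deposited scale (filled) and after centring within bins of transcript share (open), joined by a line and ordered by role (y axis). Idi1, Cyp51, Fads2, Scd2 and Elovl6 stay to the right and Hmgcs1, Acly, Sqle and Fads1 to the left on both scales, while Mvk, Pmvk, Mvd, Lss, Tm7sf2, Srebf2 and Me1 cross 0.

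**Figure D4:**
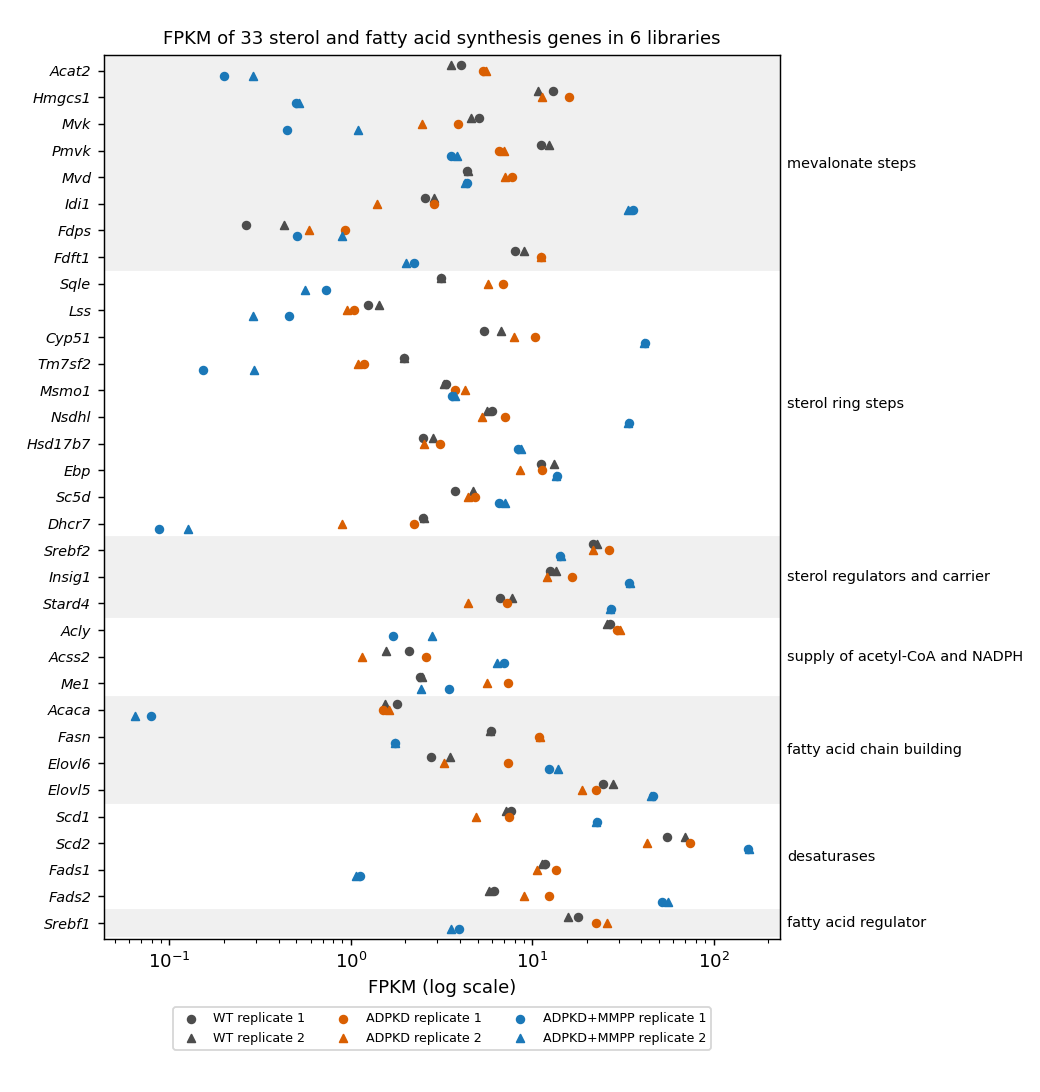
FPKM of the 33 members (x axis, log scale) in each of the 6 libraries, by group (colour) and replicate (shape), ordered by role (y axis). The 2 libraries of ADPKD+MMPP nearly coincide (a median difference of 0.05 on the log2(FPKM + 1) scale), and Idi1, Hmgcs1, Acly and Fads1 show their distance from the other libraries.

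Against WT, ADPKD+MMPP had 13 members higher and 15 lower of 32. The split was 16 to 13 with libraries centred on their medians and 14 to 13 after quantile normalization. Among all genes tested 73.9% were called, 30.1% higher and 43.8% lower. The branch medians were -0.31 for sterol and 0.49 for fatty acid genes. Once centred, 14 members were higher and 3 lower, where 62.6% of genes were called, 35.8% higher and 26.8% lower, and the branch medians were 0.14 and 0.48. The 3 members lower on that scale were Hmgcs1, Acly and Fads1, at log2 fold changes of -1.42, -1.16 and -0.91. This comparison and the previous one share the ADPKD+MMPP libraries, and the comparisons of ADPKD with WT and of ADPKD+MMPP with ADPKD share the ADPKD libraries. The 5 members that were higher in ADPKD than in WT had the following log2 fold changes in ADPKD+MMPP against WT: Me1 0.19, Sqle -1.33, Fasn -1.32, Fads2 2.99 and Mvd -0.03. The values of Me1 and Mvd were not called, those of Sqle and Fasn were called lower and that of Fads2 was called higher. Centred, Fads2, Mvd and Me1 were called higher at 2.53, 1.95 and 1.80, and Sqle and Fasn were not called.

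Cell type markers moved between ADPKD+MMPP and ADPKD too, where 27.9% of all genes tested were higher and 43.0% lower. The 14 proximal tubule markers were higher in ADPKD+MMPP than in ADPKD in 11 cases and lower in 0, and their summed level went from between 1499.5 and 2088 FPKM in ADPKD to between 22681 and 23858 in ADPKD+MMPP. Lrp2, the endocytic receptor of the proximal tubule, was at 9.80 and 4.86 FPKM in ADPKD and 68.7 and 68.7 in ADPKD+MMPP. Their part in the members' values was not tested. The 9 intercalated cell markers were higher in 7 cases and lower in 1, with sums of 263 to 271 FPKM in ADPKD+MMPP. The macrophage markers were higher in 4 cases and lower in 3, and their sum was 1363 to 1413 FPKM in ADPKD+MMPP. Of the 6 endothelial markers 4 were lower and 0 higher, and 6 were lower once centred, with sums of 104.2 to 106.1 FPKM in ADPKD+MMPP. The 7 fibroblast markers were higher in 2 cases and lower in 3, with sums of 163 to 170.4 FPKM. Their median was 23.3 and 31.4 FPKM in ADPKD and 4.06 and 3.80 in ADPKD+MMPP, a fall that the sums do not show. The thick limb and distal tubule markers were higher in 2 cases and lower in 1, and in 5 and 0 once centred. Of the 7 hepatocyte markers 6 were tested, 2 of them higher and 2 lower, and their sum was 8.24 to 10.2 FPKM in ADPKD and 56.6 to 65.3 in ADPKD+MMPP. Most of that sum was Ttr, at 47.4 and 54.1 FPKM in ADPKD+MMPP, while Alb did not exceed 1.80 FPKM in any library. Of the 4 adipocyte markers tested 1 was higher and 3 were lower. Once centred, higher and lower cases were 14 and 0 (proximal tubule), 7 and 1 (intercalated cell) and 3 and 2 (macrophage). They were 1 and 4 (fibroblast), 2 and 0 (hepatocyte) and 1 and 2 (adipocyte). Of all genes 33.8% were higher and 24.5% lower on that scale.

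Other genes of the 2 pathways were listed beside the members. Of 12 other sterol pathway genes 11 were tested, and in ADPKD 1 was higher than in WT (9.09%) and 0 were lower. Over all genes tested these shares were 14.2% and 12.5%. The gene that passed was Erlin2, an endoplasmic reticulum membrane protein linked to sterol control, at 9.94 and 9.65 FPKM in WT and 19.9 and 15.0 in ADPKD. In ADPKD+MMPP 5 were higher and 3 lower than in ADPKD, and 8 and 1 once centred. The first counts were 45.5% and 27.3% of the list, against 27.9% and 43.0% of all genes tested. Centred, they were 72.7% and 9.09%, against 33.8% and 24.5%. Scap, the carrier of SREBP2, stood at 10.8 and 10.2 FPKM in ADPKD and 31.7 and 35.3 in ADPKD+MMPP. Mbtps1, the first protease that cuts SREBP in the Golgi, was at 12.5 and 10.7 FPKM in ADPKD and 1.24 and 1.10 in ADPKD+MMPP.

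Of 29 other fatty acid pathway genes 25 were tested, and in ADPKD 4 were higher and 3 lower than in WT. These were 16% and 12% of the list, close to the 14.2% and 12.5% of all genes tested. Acacb, the carboxylase isoform at mitochondria, was at 8.51 and 7.01 FPKM in WT and 3.65 and 1.61 in ADPKD. Elovl7, an elongase, was at 13.5 and 13.8 FPKM in WT and 23.4 and 21.1 in ADPKD, and Agpat2, an enzyme of glycerolipid synthesis, at 7.98 and 8.36 and then 14.9 and 12.8. In ADPKD+MMPP 9 were higher and 10 lower than in ADPKD, and 15 and 6 once centred. The first counts were 36% and 40% of the list, against 27.9% and 43.0% of all genes tested. Centred, they were 60% and 24%, against 33.8% and 24.5%. Dgat2, which completes triglycerides, was at 6.72 and 4.96 FPKM in ADPKD and 46.7 and 49.2 in ADPKD+MMPP, with a log2 fold change of 2.85 that was 2.43 once centred.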

How the data were processed

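The study sequenced polyA RNA from WT, ADPKD and ADPKD+MMPP mice, with 2 libraries per group taken from the labels. The material is described as DBA-positive kidney cells, although the labels also mention whole-kidney RNA. The authors aligned the reads to GRCm38 (mm10) with HISAT2 2.1.0, counted them per gene with featureCounts 1.6.0 and deposited FPKM for each library. The annotation release, the strand setting and the way FPKM was computed are not given in the sources used here. Of 55367 symbols, 53253 could be joined to a single GENCODE vM21 gene, the source of coordinates, exon lengths and transcript structure. FPKM times exon length fell on whole reads, within 0.1, in 98.8% to 99.2% of low values, from which depth was taken. A value of 3 reads or fewer is at the floor. Low read numbers in ADPKD+MMPP were mostly even, so read numbers and this floor may not compare directly with the other libraries.

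A gene entered the test if 2 or more libraries reached FPKM 1. limma 3.58.1 (R 4.3.3) was fitted once to log2(FPKM + 1) of all 6 libraries. This scale understates the change of low genes. Calls used a fold of 1.5 and an unadjusted P under 0.05, and adjusted p are Benjamini-Hochberg values over all genes tested. A count test was not used because FPKM are not counts. Centring by transcript share used 20 bins of protein-coding genes. The fit was tested on simulated data. Alternatives covered the pseudocount, filter, scaling, groups in the fit, spread model, thresholds, a replicate block and leaving out each library. The members, the lists and the centring were chosen with earlier results of these data known. Values in every library are given for members called in ADPKD against WT, for the 3 highest and 3 lowest members of each branch in that comparison and in ADPKD+MMPP against ADPKD, and for Srebf1, Srebf2 and Insig1. Named genes of the other lists are defining markers or called genes. The values of some single genes of these lists are not reported here.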

Additional observations from a re-analysis of the deposited data

How the results depend on the processing

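With 2 libraries per group, the calls rest on a spread shared by all groups, and levels under about 1 FPKM rest on few reads in the shallower ADPKD+MMPP libraries. In ADPKD against WT 6 members were called, 1 of them (Me1) under every alternative including a fold of 2, and 6 to 9 when 1 library was left out. The branch medians were then -0.077 to 0.16 (sterol) and 0.012 to 0.30 (fatty acid). In ADPKD+MMPP against ADPKD 28 members were called, 15 of them under every alternative, and 27 to 29 when 1 library was left out. Leaving out 1 library gave branch medians of -0.65 to -0.54 (sterol) and -0.17 to 0.24 (fatty acid). The sterol median was -0.75 with a pseudocount of 0.1, -0.77 with a common sum of FPKM, 0.027 centred on the library median, 0.024 with quantile normalization and 0.47 centred by transcript share. The fatty acid median was -0.17, 0.72, 0.32 and 0.51 under these 4 scalings. Centring by transcript share turned the sign of Mvk (0.47), Pmvk (0.39), Mvd (1.45), Tm7sf2 (0.57), Srebf2 (1.02) and Me1 (0.71). In ADPKD+MMPP against WT it gave 17 calls in place of 28, not all among the 28. The sterol median there was -0.027 without a filter, -0.64 with a common sum, 0.29 centred on the median, 0.11 with quantile normalization and 0.14 centred by transcript share, and the fatty acid median was 0.15, 1.09 and 0.67 under the first 3 scalings. The cause of these shifts was not tested. With a replicate block the counts stayed at 6, 28 and 28. Samples with the same number did not deviate together (correlations of 0.13, -0.01 and 0.01 between pairs of groups). Each group gives only a single difference between replicates, so these values cannot exclude that the numbers pair the libraries.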
